A study of Mus musculus with 6 samples.

Results

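The chromatin of nephron progenitors was examined at 8 genes of the podocyte, the cell that the progenitors later give rise to in the glomerulus. The genes were Nphs1, Podxl, Synpo, Tcf21, Magi2, Ptpro, Lmx1b and Plce1. A region of the deposited accessibility table was counted for a gene when its midpoint lay in the gene body or within 50 kb of it, in mm10 coordinates. By this rule 57 of the 43523 distinct regions were found: 27 at Magi2, 10 at Ptpro, 8 at Plce1, 6 at Synpo, 2 each at Podxl and Tcf21, and 1 each at Nphs1 and Lmx1b. The rule that picked the regions used no count, although the genes were chosen with earlier results of these data known. Accessibility had been measured by ATAC-seq, in which the transposase Tn5 cuts open DNA and tags it with adapters, so that the count in a region rises with its openness. The cells came from CD1 mice of 2 stages, 3 litters of embryos at E14.5 and 3 litters of pups on the day of birth (P0). No genotype or treatment other than the stage set the groups apart. Each library was made from 50000 cells of the pooled kidneys (up to 24) of 1 litter, captured with antibodies to the integrin Itga8, so a value is an average over embryos or pups and over all cells captured.

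Podocytes wrap the capillaries of the glomerulus with interlocking foot processes, and the gaps between these are bridged by the slit diaphragm, the last layer of the filter. Nephrin, the product of Nphs1, is the core adhesion protein of the slit diaphragm, and Magi2 is a scaffold protein that anchors it. Podxl encodes podocalyxin, the charged sialoprotein of the podocyte surface, Synpo the actin-associated synaptopodin of foot processes, Ptpro a receptor tyrosine phosphatase of the apical membrane and Plce1 a phospholipase C. Tcf21 and Lmx1b encode transcription factors of podocyte differentiation, a basic helix-loop-helix and a LIM homeobox protein. Nephron progenitors reach this fate by way of the renal vesicle and the S-shaped body, so most of these genes are known for their expression after the progenitor stage.

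A promoter region was found for 5 genes in progenitors, and none for the other 3. A region listed as the gene's own promoter was found at Podxl, Tcf21, Magi2, Ptpro and Plce1. None was listed for Nphs1, Synpo or Lmx1b in the table used here. The single region counted for Nphs1 was the promoter of Arhgap33, 46172 bp from the gene, and no region had its midpoint in Nphs1 itself. The single Lmx1b region lay inside the gene and outside its exons. RefSeq starts with a sequence were at hand for 6 of the 8 genes, not for Podxl or Synpo, which rest on the listing alone. There were 7 start windows in all, of which 4 starts lay under a region (57.1%). Over all 32851 RefSeq start windows the share was 41.2%, and 7 windows are too few to set the members apart from it.

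The 250 bases before 6 of these starts are shown, 4 that lay under a region and then 2 that did not, so that open and unlisted promoters can be read side by side. They are reference sequences from RefSeq (GRCm38.p6, the same coordinates as mm10), written 5′ to 3′ on the strand of the gene. They lie at chr5:19226796-19227045 (+) and chr5:19907268-19907517 (+) for the Magi2 starts, chr6:137252049-137252298 (+) for Ptpro, chr10:22820144-22820393 (-) for Tcf21, chr7:30459808-30460057 (+) for Nphs1 and chr2:33641099-33641348 (-) for Lmx1b. Capitals mark any match, on either strand, to TGTTTAC, the letters searched for forkhead factors, CAGCTG for the E-box, TAATTA for LIM homeobox factors, GCGTGGG for the Wt1 type, GGGCGG for the GC box or TATAAA for the TATA box.
Magi2 first start: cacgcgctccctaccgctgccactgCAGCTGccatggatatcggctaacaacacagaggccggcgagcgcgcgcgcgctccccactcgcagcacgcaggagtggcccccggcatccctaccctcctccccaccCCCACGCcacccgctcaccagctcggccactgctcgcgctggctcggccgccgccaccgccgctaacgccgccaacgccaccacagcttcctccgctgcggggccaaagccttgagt
Magi2 internal start: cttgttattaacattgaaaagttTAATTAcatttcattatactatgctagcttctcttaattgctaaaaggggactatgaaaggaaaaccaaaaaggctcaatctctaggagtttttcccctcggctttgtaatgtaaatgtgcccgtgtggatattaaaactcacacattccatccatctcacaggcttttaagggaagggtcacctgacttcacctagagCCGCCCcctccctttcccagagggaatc
Ptpro: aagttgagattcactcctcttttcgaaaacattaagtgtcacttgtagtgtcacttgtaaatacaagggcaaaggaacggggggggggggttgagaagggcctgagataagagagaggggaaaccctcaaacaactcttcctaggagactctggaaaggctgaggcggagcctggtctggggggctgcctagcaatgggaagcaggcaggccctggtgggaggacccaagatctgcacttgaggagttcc
Tcf21: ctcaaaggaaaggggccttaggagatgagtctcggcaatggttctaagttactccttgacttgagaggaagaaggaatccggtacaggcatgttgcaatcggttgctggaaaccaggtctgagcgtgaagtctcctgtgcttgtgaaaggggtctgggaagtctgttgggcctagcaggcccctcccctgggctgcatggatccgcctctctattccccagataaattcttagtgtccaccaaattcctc
Nphs1: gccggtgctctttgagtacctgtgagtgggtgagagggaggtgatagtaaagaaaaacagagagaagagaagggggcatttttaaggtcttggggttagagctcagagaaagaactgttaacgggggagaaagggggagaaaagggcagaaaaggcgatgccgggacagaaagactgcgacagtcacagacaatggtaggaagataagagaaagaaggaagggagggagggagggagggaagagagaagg
Lmx1b: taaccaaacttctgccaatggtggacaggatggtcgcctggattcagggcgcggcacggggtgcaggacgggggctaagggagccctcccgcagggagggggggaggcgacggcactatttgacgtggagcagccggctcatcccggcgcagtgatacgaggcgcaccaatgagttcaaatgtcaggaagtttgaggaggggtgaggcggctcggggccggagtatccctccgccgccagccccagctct
Where matches of different motifs overlapped, each was counted. The first Magi2 start held 1 E-box match and 1 Wt1-type match, and the internal start held 1 TAATTA and 1 GC-box match. The windows of Ptpro, Tcf21, Nphs1 and Lmx1b held none of these letters. Over all windows, 13.0% held CAGCTG, 4.84% TAATTA, 4.30% GCGTGGG, 32.7% GGGCGG, 3.17% TGTTTAC and 12.4% TATAAA. A match or its lack describes only the letters of this window.

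Base composition did not divide the listed from the unlisted promoters of these genes. The first Magi2 start was the richest, with 72.0% G and C and 29 CpG dinucleotides in 250 bases. Lmx1b followed with 65.2% and 19 CpG, yet no region covered its start. Ptpro (53.6%, 3 CpG), Tcf21 (52.4%, 5 CpG) and the internal Magi2 start (41.2%, 3 CpG) were covered with far fewer CpG. Nphs1, which was not covered, had 50.8% and 5 CpG, the same CpG number as Tcf21. The 1 RefSeq window of Plce1, at a start inside the gene, had 38.8% and 6 CpG and lay under no region. That gene counts as open by the table's promoter annotation. Its listed region from 38480119 to 38481759 reached over the start of the RefSeq gene span, with its midpoint 95 bp away. Over all RefSeq windows the median was 16 CpG under a region and 3 CpG elsewhere.

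Depth allowed every one of the 57 regions to be tested. The libraries held from 6492996 to 12292629 counts in regions, and each member region from 25 to 1624. All 57 together took 0.0939% to 0.115% of the counts of a library. Of 9 progenitor genes, 8 had a promoter region, Six2, Cited1, Eya1, Osr1 and Itga8 among them, and Meox1 had none. A promoter region was also listed for 5 of 6 ureteric genes, 2 of 6 stromal genes (Foxd1, Tbx18), 2 of 6 early nephron genes (Pax8, Jag1), 1 of 5 endothelial genes (Kdr) and 0 of 4 immune genes, so a listed promoter does not by itself tell the cell types apart. Summed over the regions within 50 kb, the early nephron genes took 372 to 395 CPM at E14.5 and 381 to 459 CPM at P0, and the stromal genes 239 to 242 CPM and 223 to 239 CPM. CPM are counts per 1000000 counts after scaling for library composition. The endothelial genes took 298 to 312 and 283 to 305 CPM, the ureteric genes 391 to 436 and 359 to 398 CPM and the immune genes 121 to 141 and 117 to 126 CPM. The progenitor genes took 475 to 486 and 406 to 473 CPM, and 3 of their 27 regions were lower at P0 (edgeR), 2 at Eya1 and 1 at Itga8, the gene used to capture the cells, where 2.94% of all regions were called lower. Of the other marker lists, 1 of 18 early nephron regions was higher (Pax8, log2 fold change 0.98), against 1.79% of all regions, and 2 of 19 endothelial regions, both at Cdh5, were called in opposite directions (0.93 and -0.94), against 4.73%. The part of these genes and cells in the podocyte gene results was not tested. In pooled cells, fewer cells with an open region and less opening in each cell cannot be told apart.

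Promoter levels were compared per kb of region, as means over the 6 libraries. The region over the first Magi2 start was the most open, at 41.2 ± 3.48 CPM per kb (SD, n = 6), at or above 92.8% of all listed promoter regions. A region at the far end of Magi2, listed as promoter of a second identifier (ENSMUSG00000073174) that the table pairs with the same name, was next at 40.6 ± 5.91 CPM per kb. These levels differed by less than their SD. The far region, 99.8% of the way along the gene, held no RefSeq start at hand for Magi2, so it is a promoter by listing alone. Plce1 came next, with 15.2 ± 2.12 CPM per kb at the gene start, at or above 59.4% of promoter regions. The internal Magi2 start (11.5 ± 1.60 CPM per kb) and Ptpro (10.96 ± 2.11) lay within their SD of each other. Tcf21 reached 9.12 ± 2.21 CPM per kb and Podxl, the lowest, 7.20 ± 0.641, at or above only 26.2% and 10.2% of promoter regions.

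**Figure D1:**
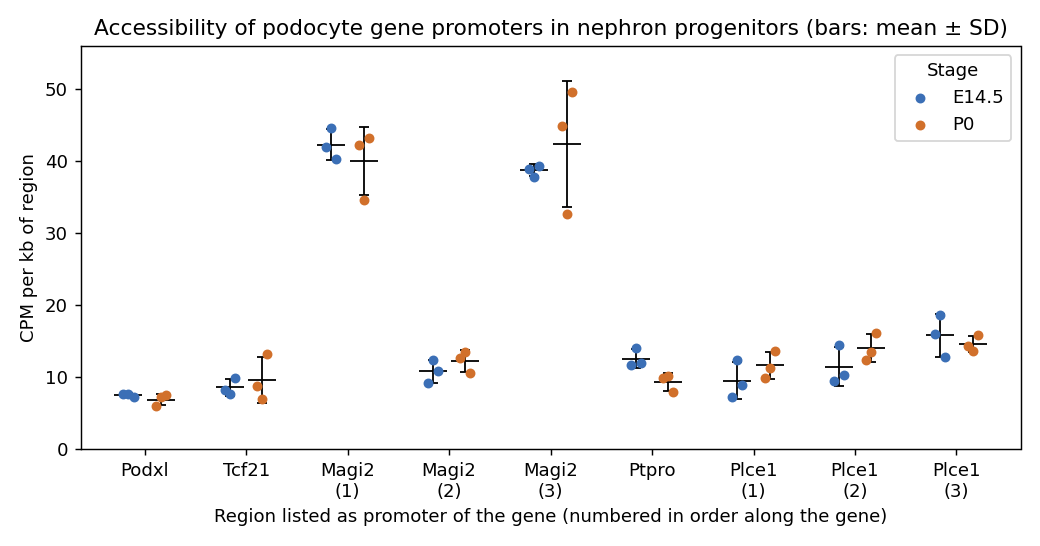
CPM per kb of region (vertical axis) for the 9 regions listed as a promoter of a podocyte gene, with 1 point per library, E14.5 in blue and P0 in orange, and bars for the mean and SD of 3 libraries. The first and last Magi2 regions, with means of 41.2 and 40.6 CPM per kb over both stages, stand above the other 7; the Plce1 regions numbered 1 and 2 overlap.

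Between the stages, 4 of the 57 regions passed an adjusted p of 0.05 in edgeR's quasi-likelihood test, or 7.02%. Over all regions tested the share was 4.73%, close to that of the members. Each of the 4 lay within Magi2 and was less open at P0, against 2.94% of all regions called lower and 1.79% called higher. Higher at P0 were 0 of the 57 by edgeR and by limma-voom, and 2 by DESeq2, also in Magi2. DESeq2 called 6 of the 57 in either direction, against 2778 of all 43523 regions. At an adjusted p under 0.1, 6 member regions were called in edgeR (8.02% of all regions), 2 of them higher. At an unadjusted p under 0.05, 6 regions were higher (9.85% of all regions) and 7 lower (8.85%) at P0 in edgeR, 22.8% of the members against 18.7% of all regions. All P0 libraries lay above all E14.5 libraries in 8 member regions (11.8% of all regions) and below them in 7 (12.4%), 26.3% together, against 24.2% of all regions. The median log2 fold change, P0 against E14.5, was 0.11 over the members and 0.01 over all regions. Outside promoters the values were 0.13 and 0.10, close to each other, and over all promoter regions the median was -0.10. At Magi2 alone (27 regions) the median was -0.08, and over the other 30 member regions 0.17. The members' median was 0.06 to 0.09 when any 1 library was left out, the lowest without E14.5 replicate 3 (0.059), P0 replicate 1 (0.066) or P0 replicate 2 (0.066). Outside promoters the members called were 4 of 45 (8.89%), against 6.59% of all such regions, and at promoters 0 of 12 in edgeR, DESeq2 and limma-voom, against 0.851% of all promoter regions in edgeR. At an unadjusted p under 0.05 it was 1 of the 12 promoters, against 8.73% of all promoter regions. Without E14.5 replicate 3 or without P0 replicate 1, no member region passed, and the regions called over the whole table fell from 2059 to 339 and 474.

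**Figure D2:**
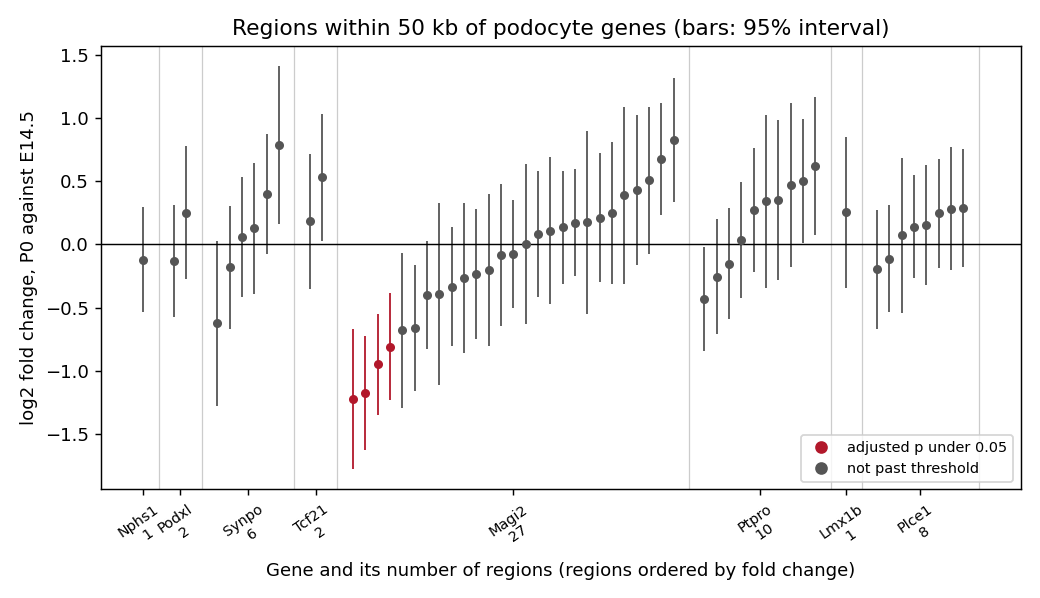
Log2 fold change of P0 against E14.5 (vertical axis) with its 95% interval for each of the 57 regions, grouped by gene and ordered within it. The 4 red points, all at Magi2 and between -1.22 and -0.81, passed an adjusted p of 0.05; the other 53 regions did not.

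Magi2 spans 1485 kb on chromosome 5, and 26 of its 27 regions lay in the gene body. Few genes had as many: 0.0731% of protein-coding RefSeq genes had 27 regions or more within 50 kb, where the median was 3 and long genes have more room. The region from 19862432 to 19863900, 43.3% of the way along the gene and outside its exons, held 22.5, 26.9 and 32.8 CPM in E14.5 replicates 1 to 3 and 10.4, 13.8 and 12.3 CPM in P0 replicates 1 to 3. Every P0 library was below every E14.5 library. The log2 fold change was -1.18 (SE 0.21, 95% interval -1.63 to -0.72; edgeR adjusted p = 0.00659).

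A second intronic stretch of Magi2, from 19463674 to 19465580, showed the largest loss among the members. Its CPM were 13.8, 16.5 and 22.2 at E14.5 and 5.52, 8.78 and 8.21 at P0. The stages did not overlap here either, and the spread between litters was wider at E14.5. The log2 fold change was -1.22 (SE 0.26, 95% interval -1.78 to -0.67; edgeR adjusted p = 0.0156). The table lists matches to the forkhead motifs of Foxj3 and Foxl2 in it.

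At 20054759 to 20057577 the E14.5 litters were nearly alike, with 32.4, 33.5 and 33.9 CPM, and P0 held 17.4, 14.8 and 19.2 CPM. This region fell by 0.95 on the log2 scale (SE 0.19, edgeR adjusted p = 0.0108), and forkhead matches (Foxf1, Foxp3, Foxo3, Foxo1, Foxk1, Foxp2) are listed in it as well. No motif match is listed in the other 2 of the 4 called regions. The fourth, from 20139411 to 20142658, had 33.2, 31.4 and 45.3 CPM at E14.5 and 20.7, 21.6 and 20.4 CPM at P0, a gap with no overlap. It had a log2 fold change of -0.81 (SE 0.20; edgeR adjusted p = 0.0304). The first 3 of these regions passed in 12 of 14 alternative fits and the last in 11. All 4 missed the threshold without E14.5 replicate 3, with adjusted p from 0.0655 to 0.213, and without P0 replicate 1, with 0.0574 to 0.158. Their log2 fold changes in these fits ran from -1.03 to -0.63 and from -1.09 to -0.82. The last also missed it without E14.5 replicate 1 (adjusted p = 0.0620).

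**Figure D3:**
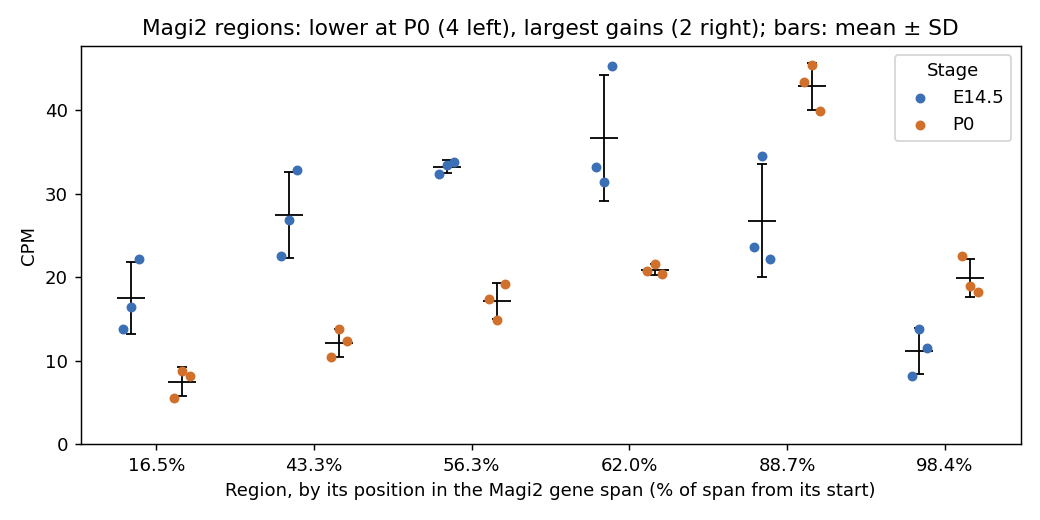
CPM (vertical axis) of 6 Magi2 regions in each library, E14.5 in blue and P0 in orange, with bars for the mean and SD of 3 libraries and positions given as percent of the gene span. In the 4 regions at 16.5% to 62.0% all P0 points lie below all E14.5 points, and in the 2 at 88.7% and 98.4%, whose gains missed the threshold, they lie above.

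The regions listed as Magi2 promoters did not share these losses beyond the spread of the litters. The region over the first start held 125, 132 and 120 CPM at E14.5 and 125, 103 and 128 CPM at P0, with overlapping stages and a log2 fold change of -0.08 (95% interval -0.51 to 0.35, edgeR adjusted p = 0.882). The internal start had 0.17 (-0.25 to 0.59) and the far region, a promoter by listing alone, 0.13 (-0.31 to 0.58). Each interval excludes a loss as large as the -0.81 of the weakest called region, but the difference between promoter and intronic regions was not itself tested.

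Toward the far end of Magi2 several regions had higher values at P0. The region from 20680996 to 20682509 held 8.19, 13.8 and 11.6 CPM at E14.5 and 22.5, 18.9 and 18.2 CPM at P0. The stages did not overlap, and the log2 fold change of 0.83 (SE 0.23, 95% interval 0.33 to 1.32) had an adjusted p of 0.0547 in edgeR, just outside the threshold. A region from 20535218 to 20537976, chosen after its values were seen, had 23.6, 34.5 and 22.2 CPM at E14.5 against 43.4, 45.4 and 39.9 at P0 (log2 fold change 0.67, edgeR adjusted p = 0.0827). Both passed with DESeq2 (adjusted p = 0.0340 and 0.0457) and without E14.5 replicate 2 (0.0297 and 0.0274). Up to and including the last of the 4 called regions, 8 of 12 regions in the gene had lower values at P0, and beyond it 5 of 14 did. This division was drawn after the values were seen and carries no test. By construction the first part holds all 4 called regions. Lower values were found for 21289 of all 43523 regions and for 11989 of the 29426 outside promoters. Summed over all 27 regions, the Magi2 locus showed 591 ± 32.3 CPM at E14.5 and 549 ± 11.8 CPM at P0 (SD over 3 litters), while the log2 fold change fitted on sums over all loci, which carry their own scaling, was -0.04 (SE 0.16).

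**Figure D4:**
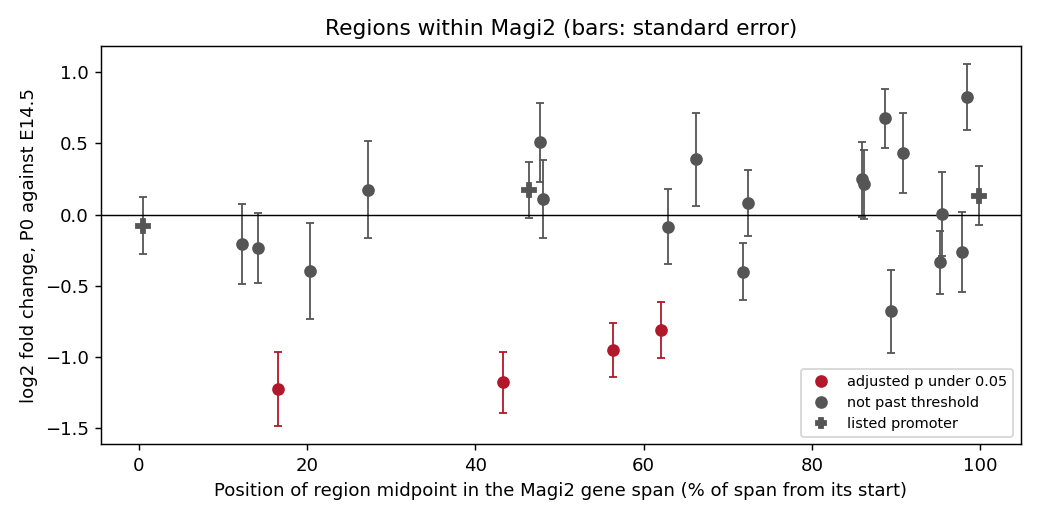
Log2 fold change with its standard error (vertical axis) of the 26 regions in the Magi2 gene body against the position of the region along the gene (horizontal axis, percent of the span). The 4 red points passed the threshold and lie between 16.5% and 62.0% of the span; the 3 listed promoters (crosses) lie between -0.08 and 0.17.

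For the transcription factor genes no change passed the test. The Tcf21 promoter, on chromosome 10 from 22819160 to 22820694, held 12.6, 11.8 and 15.2 CPM at E14.5 and 13.4, 10.7 and 20.2 CPM at P0. P0 replicate 3 was the highest and P0 replicate 2 the lowest, so the stages overlapped (log2 fold change 0.18, SE 0.25, 95% interval -0.35 to 0.72; edgeR adjusted p = 0.762). A region 48686 bp from Tcf21, from 22868155 to 22869504, held 7.12, 9.20 and 9.46 CPM at E14.5 and 13.0, 11.2 and 13.0 CPM at P0. All P0 litters lay above all E14.5 litters there, with a log2 fold change of 0.53 (SE 0.24, edgeR adjusted p = 0.235). The Lmx1b region, on chromosome 2 from 33628614 to 33630005, held 8.54, 14.8 and 7.59 CPM at E14.5 and 13.2, 9.53 and 14.1 CPM at P0. E14.5 replicate 2 exceeded every P0 library (log2 fold change 0.25, SE 0.28, edgeR adjusted p = 0.692). Its 95% interval of -0.34 to 0.85 was the widest among the regions named at the transcription factor genes. The value ran from 0.08 without E14.5 replicate 3 to 0.61 without E14.5 replicate 2.

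The receptor phosphatase gene Ptpro had 7 of its 10 regions with higher values at P0, while its promoter was the lowest in fold change. That promoter, on chromosome 6 from 137251485 to 137253910, held 28.4, 34.2 and 29.0 CPM at E14.5 and 23.9, 24.8 and 19.3 CPM at P0. All P0 litters were below all E14.5 litters, with a log2 fold change of -0.43 (SE 0.19, 95% interval -0.84 to -0.025), but the adjusted p was 0.235 in edgeR. In an exonic region further along, from 137440336 to 137441415, E14.5 held 5.69, 7.62 and 9.58 CPM and P0 held 11.5, 12.0 and 11.8 CPM. The stages again did not overlap, in the opposite direction (log2 fold change 0.62, SE 0.26, edgeR adjusted p = 0.2003). Of the 10 Ptpro regions, 3 had an unadjusted p under 0.05 (30.0%, against 18.7% of all regions).

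No region of Plce1, the phospholipase gene, passed the test. The region at its start, on chromosome 19 from 38480119 to 38481759, held 26.3, 30.7 and 20.9 CPM at E14.5 and 23.5, 22.4 and 26.0 CPM at P0 (log2 fold change -0.11, SE 0.20, edgeR adjusted p = 0.820). E14.5 replicates 2 and 3 bracketed all P0 libraries. The log2 fold changes of all 8 regions lay between -0.20 and 0.29, and 0 had an unadjusted p under 0.05 in edgeR. The upstream promoter regions, at 0.28 and 0.29 with all libraries, reached 0.51 and 0.49 without E14.5 replicate 2, the highest E14.5 library in 7 of the 8 regions and in 37.1% of all regions, and the summed locus went from 0.14 to 0.28. Without E14.5 replicate 1 these were 0.12, 0.17 and 0.07. The 8 include overlapping pairs that share DNA. The region from 38477875 to 38479651, upstream of the gene, contains that from 38478218 to 38479651, yet in E14.5 replicate 1 the outer one held 109 counts and the inner one 115. The same was seen, in at least 1 library, in 156 of the 294 nested pairs of the table, so overlapping regions are not independent entries and their counts do not add up. The summed Plce1 locus nevertheless holds all 8 regions, with no correction for the DNA that nested pairs share. The most open region of the Plce1 window, 21.8 CPM per kb, was the promoter of the neighbouring gene Noc3l.

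Among the surface and foot process genes, the Podxl promoter, on chromosome 6 from 31562566 to 31564501, showed no change past the threshold. It held 14.95, 14.8 and 14.0 CPM at E14.5 and 11.6, 13.9 and 14.4 CPM at P0 (log2 fold change -0.13, SE 0.21, edgeR adjusted p = 0.797). The second Podxl region lay 32724 bp from the gene, from 31595825 to 31597497, and is listed as a FANTOM enhancer. It was more open per kb than the promoter, at 12.8 ± 3.44 CPM per kb (SD, n = 6), with 18.5, 15.1 and 24.8 CPM at E14.5 and 21.0, 31.0 and 17.8 CPM at P0. The libraries of both stages interleaved (log2 fold change 0.25, SE 0.25, edgeR adjusted p = 0.641).

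Synpo, on chromosome 18, had 4 regions in its body and none at a listed promoter of its own. Its highest region, exonic, from 60595058 to 60597369, held 22.2, 20.2 and 27.3 CPM at E14.5 and 25.1, 16.3 and 33.9 CPM at P0, and the P0 litters alone spanned the range of E14.5. The largest gain, outside exons from 60656796 to 60657779, went from 3.80, 6.74 and 6.07 CPM to 8.43, 11.2 and 9.31 CPM. The stages did not overlap there, and the log2 fold change was 0.79 (SE 0.29, edgeR adjusted p = 0.1501). The largest loss, from 60643506 to 60644136, was -0.63 (SE 0.31, edgeR adjusted p = 0.293) and rested on 25 to 78 counts a library. The region counted for Nphs1, on chromosome 7 from 30533637 to 30535954, held 31.8, 22.2 and 25.8 CPM at E14.5 and 23.3, 23.8 and 26.1 CPM at P0, which overlap (log2 fold change -0.12, edgeR adjusted p = 0.802).

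Counts were also summed per locus and fitted over all 41558 RefSeq genes with a region within 50 kb. Of the 8 podocyte loci 0 passed an adjusted p of 0.05 in edgeR, in DESeq2 or in limma-voom, and 0 had an unadjusted p under 0.05 in edgeR, against 13.5% of all loci. Over all loci 50 were called in edgeR (0.12%), 809 in DESeq2 and 23 in limma-voom. That number hung on single libraries in edgeR, with 0 loci called without E14.5 replicate 3 or P0 replicate 1, 11 without E14.5 replicate 1 and 35 when P0 replicate 2 was left out. It was 315 without E14.5 replicate 2, and leaving out P0 replicate 3 gave 793. With all libraries kept, 182 loci were called under total-count scaling and 366 with the replicate number as a block. With all libraries the fold change was largest at the Tcf21 locus, from 21.8 ± 2.56 to 27.2 ± 5.68 CPM (SD over 3 litters; fitted change 0.38 on the log2 scale, SE 0.18, 95% interval -0.02 to 0.78; edgeR adjusted p = 0.391). The remaining 7 loci lay between -0.06 and 0.29, with Lmx1b the least precise (SE 0.31). Without E14.5 replicate 2 the Lmx1b locus, at 0.70, exceeded the Tcf21 locus, at 0.38.

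The 57 regions held fewer promoters than the table as a whole, 21.1% against 32.4%. By the table's annotation, 9 were promoters of a member, 3 promoters of another gene, 7 exonic and 32 in a gene body outside exons, and 6 lay in the flanks. All 7 exonic regions had positive fold changes, with 0 past the threshold in edgeR, DESeq2 or limma-voom and 1 at an unadjusted p under 0.05 in edgeR. Positive values were also found for 17437 of all 29426 regions outside promoters, and 2 of the 7 are a nested Plce1 pair that shares DNA. The median length of the 57 was 1518 bp against 1599 bp for all regions, and the median level 8.96 against 8.89 CPM per kb. A FANTOM enhancer was listed in 6 of the 57, against 9.65% of all regions, and a VISTA element in none. Listed forkhead matches fell in 14 of the 45 regions outside promoters (31.1%), against 23.7% of all such regions. With promoters included, it was 10 of the 27 Magi2 regions (37.0%) and 1 of the 10 Ptpro regions, against 21.0% of all regions. Sox matches were listed in 7 of the 45 (15.6%, against 15.1%) and E2F matches in 1 (2.22%, against 6.32%).

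Other podocyte genes had few calls. Of 171 regions within 50 kb of 36 of 38 further podocyte genes, 3 passed the test, 1 higher and 2 lower at P0 (1.75%, against 4.73% of all regions). Kirrel2, which encodes a nephrin-related adhesion protein next to Nphs1, and Vegfa, the endothelial growth factor gene, had no region within 50 kb in the table used here. Slit diaphragm and junction genes such as Cd2ap and Trpc6 had 0 of 32 regions past the threshold in edgeR, DESeq2 or limma-voom (1 with an unadjusted p under 0.05 in edgeR). Podocyte transcription factor genes such as Wt1 and Foxc1 had 0 of 15 in edgeR, DESeq2 or limma-voom, with 1 at an unadjusted p under 0.05 in edgeR. Among cytoskeletal genes 1 of 40 was lower, near Myo1e, which encodes a myosin of foot processes (log2 fold change -1.45, SE 0.27, edgeR adjusted p = 0.00713). DESeq2 and limma-voom each called 2 of the 40, against 2778 and 1908 of all 43523 regions. At an unadjusted p under 0.05 in edgeR, 5 of the 40 were lower (8.85% of all regions) and 0 higher (9.85%). Among adhesion and basement membrane genes 1 of 51 was lower, near the integrin gene Itgb1 (-0.75, SE 0.20, adjusted p = 0.0427). Signalling and other genes had 1 of 33 higher, near the semaphorin gene Sema3g (1.01, SE 0.23, adjusted p = 0.0196). Promoter regions were listed for 31 of these 38 genes, Wt1, Cd2ap and Trpc6 among them.

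The authors' deposited table classes 4 of the 57 member regions as closing (7.02%, against 2.48% of all regions) and 2 as opening (3.51%, against 2.86%). In the authors' deposited table the 4 closing regions are the 4 called here, with log2 fold changes from -1.12 to -0.69 and adjusted p-values from 0.0529 to 0.0989. The authors' deposited table gives the Magi2 region from 20680996 to 20682509 a log2 fold change of 0.86 with an adjusted p-value of 0.0821. These values come from the same libraries and are not an independent measurement.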

How the data were processed

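ATAC-seq counts of 6 libraries (3 per stage) were analysed, with stage and number taken from the source names. The authors deposited 1 table of whole-number counts per region and library, with coordinates in mm10, per the submitters' processing notes. The aligner, peak caller, counting rule, duplicate removal and Tn5 shift are not given in the sources used here. The deposited log2 fold change and adjusted p-value are the authors' own, from a model not given in the sources used here. Of 45489 rows, 1966 repeated a region, leaving 43523.

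Gene spans and promoter sequences came from RefSeq (GRCm38.p6). Promoter classes are the table's, joined to symbols through identifier and name pairs in the same table, or a region over a RefSeq start. Regions were fitted with edgeR 4.0.16 in R 4.3.3 (TMM, filterByExpr, which removed 0 regions, quasi-likelihood F test, stage only), and p-values were adjusted by Benjamini-Hochberg over all regions. SE is the fold change divided by the square root of F, and 95% intervals use the t distribution. Counts per gene locus were fitted the same way, and neighbouring genes share regions. Alternatives were DESeq2 1.42.0 (test and size factors), limma-voom 3.58.1, total-count scaling, filters, repeated rows, windows of 0, 10 and 100 kb, each library left out, and a replicate block. The fits were tested on simulated data.

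Regions named were each member's listed promoters, those past the threshold, the highest, and the largest gain and loss. The members and lists were chosen with earlier results of these data known. Litters are separate by the series design. Some items of the lists enter the counts only and are not reported here by name. Python 3.11.15 was used for counts and figures.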

Additional observations from a re-analysis of the deposited data

How the results depend on the processing

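The 4 member regions past the threshold stayed within 1.5 times that number under other scalings, filters, windows and tests, with the exceptions given here. Leaving out 1 library gave from 0 to 7 regions, 0 to 2 of them higher and 0 to 5 lower at P0, with 0 without E14.5 replicate 3 or P0 replicate 1 and 7 without E14.5 replicate 2. Regions higher at P0 numbered 2 with the DESeq2 Wald test and 2 at an adjusted p under 0.1. With total-count scaling the members' median log2 fold change was 0.17 in place of 0.11, and that of all regions moved by 0.06. The members' median was 0.069 with a 100 kb flank and 0.06 to 0.09 without 1 library. The cause was not tested.

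No member locus passed in any of the alternatives. Of 432 alternative values of single regions and loci, 14 changed sign, 0 of them past the threshold. Over the fits without 1 library the log2 fold change ran from -0.25 to 0.026 for the Nphs1 region, -0.0012 to 0.46 for the distal Podxl region, -0.17 to 0.35 for the highest Synpo region and -0.13 to 0.36 for the Tcf21 promoter. It ran from -0.15 to 0.013 for the first and -0.010 to 0.29 for the far region listed as a Magi2 promoter. For the Plce1 start it ran from -0.25 to 0.014 and for the Noc3l promoter from -0.35 to 0.019. For summed counts it ran from -0.15 to 0.078 at Nphs1, -0.046 to 0.30 at Podxl and -0.092 to 0.027 at Magi2. The Podxl sum was -0.065 with a 10 kb flank and -0.075 in the gene body alone, both without the distal region.

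With the replicate number as a block, 4 member regions passed (median log2 fold change 0.11), 0 higher and 4 lower, and 0 member loci, where 366 of all loci were called. Same-numbered libraries deviated together with correlations of 0.07, -0.14 and 0.08 across regions, so the numbers were not taken to pair the litters, and not every library correlated best with its own number. The median SE of a member's log2 fold change was 0.23, and named member regions with log2 fold changes of 0.53 to 0.83 did not pass, so changes of moderate size could be missed with 3 litters a stage.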
